A study of Mus musculus with 18 samples.

Results

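The data are the control libraries of an RNA sequencing series on cultured mouse satellite cells, 9 of its 18 libraries, chosen as the 9 columns labelled control replicate 1 to 9. The other 9 libraries, labelled scKO, were not used. The cells came from the tibialis anterior, a muscle of the lower hindlimb, of the strain C57BL6, and were proliferating in growth medium on dishes coated with matrigel. The genotype of every control is CON (Hoxa10f/f): each copy of the homeobox gene Hoxa10 carries target sites of the recombinase Cre, no Cre transgene is named, and 4-hydroxytamoxifen is stated for the scKO group alone. The controls are therefore cells with altered but unrecombined Hoxa10 alleles as far as the labels say, grown outside the muscle, without their fibre and niche. Total RNA was taken with IsogenII and RNeasy columns. Whether the 9 libraries came from separate mice or cultures is not stated, so each p-value and each standard deviation (SD) covers the spread between these samples only, which may be technical. In bulk RNA, fewer cells of a type and less RNA per cell cannot be told apart.

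Satellite cells lie between the muscle fibre and its basement membrane and divide when muscle is injured or when they are put in culture. The paired-box factor Pax7 marks the stem cell state. Activated cells, called myoblasts, carry the basic helix-loop-helix factors Myf5 and Myod1, which bind the E-box (CANNTG) together with E proteins such as Tcf3, while the Id proteins hold E proteins away from DNA. On leaving the cell cycle, myoblasts switch on Myog and Cdkn1a, then the membrane proteins Mymk and Mymx that fuse cells into myotubes, and the genes of the contractile apparatus. Many contractile and cytoskeletal genes are also controlled by serum response factor (Srf), whose site is the CArG box.

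Control 1 and 2 were deep, with 4346150 and 5986128 counts of unique molecular identifiers (UMIs), and control 3 to 9 were shallow, with 917166, 821728, 819778, 666272, 670213, 498216 and 420197. No count in the table exceeded 4 to the power 6, as many as there are UMIs of 6 bases, and 338 and 563 genes lay above the midpoint of that range in the deep libraries against 14 to 39 in the shallow ones. Abundant genes were therefore ranked in control 3 to 9, and levels are given as CPM, counts scaled to a common library total, with totals adjusted by TMM over those 7 libraries. A count of 3, used as the floor for calling a gene detected, corresponded to 3.27 to 7.14 CPM in the shallow libraries. A total of 7592 of 21828 protein-coding nuclear genes (34.8%) had at least 3 counts in every shallow library. Mitochondrially encoded transcripts held 2.82 to 3.91% of the counts in the shallow libraries and 1.06 and 0.882% in the deep ones. The median log2 ratio of deep over shallow libraries over these 13 genes was -1.22 on deposited counts and 0.18 on counts corrected for shared UMIs. Their corrected sum was still lower in the deep libraries, at 25739 to 34242 CPM against 37809 to 54059 in the shallow ones, each depth scaled on its own totals. The part of the ceiling in the lower share was not tested. Spearman's rho between libraries, a description across genes, was 0.755 to 0.939 among the shallow libraries, 0.981 for the deep pair and 0.570 to 0.820 between a deep and a shallow library. No pair was as alike as counting noise alone would make it, so each library was counted as 1 sample. Control 7, 8 and 9 stood apart from control 3 to 6 on the first principal component of the shallow libraries, which held 57.5% of the variance.

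**Figure D1:**
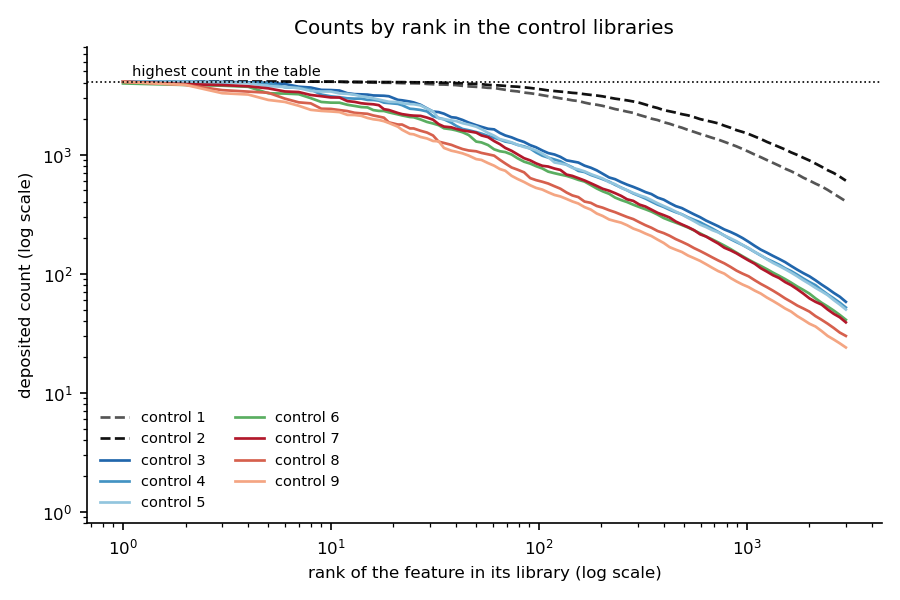
UMI count of each gene (vertical log axis) by its rank within a library (horizontal log axis), 1 line per control library, with the deep libraries dashed and the highest possible count dotted. The leading genes of control 1 and 2 flatten against that ceiling, while control 3 to 9 come near it with few genes (14 to 39 above its midpoint).

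Pax7 RNA was present in all 9 libraries, at a level far below that of Myod1 and Myog. Pax7 (ENSMUSG00000028736, GRCm38 chr4:139737062-139833528, minus strand) had counts of 207 and 432 in control 1 and 2 and of 26, 23, 22, 15, 14, 19 and 8 in control 3 to 9. Its CPM in control 3 to 9 was 27.1, 26.8, 26.7, 22.3, 22.5, 37.5 and 19.9, with a mean of 26.1 ± 5.75 (SD, n = 7). Control 8 was the highest and control 9 the lowest, and the coefficient of variation (CV) of 22.0% was no larger than the 24.5% that counting error alone gives at this depth. Per kilobase of merged exons, the scale used below to set genes side by side, Pax7 had 4.46 CPM, rank 5991 among features with a gene model. Pax3, its paralogue in embryonic muscle progenitors, had at most 3 counts in a shallow library.

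Myod1, the factor of committed myoblasts, and Myog, the factor of terminal differentiation, were both abundant. Myod1 (ENSMUSG00000009471, chr7:46376474-46379099, plus strand) was at 1211, 1310, 979, 1001, 980.3, 1269 and 668 CPM in control 3 to 9, a mean of 1060 ± 223 (SD, n = 7). Control 9 was the lowest and control 4 the highest. Myog (ENSMUSG00000026459, chr1:134289989-134292548, plus strand) was at 894, 917, 997, 805, 673, 666 and 760.4 CPM, a mean of 816 ± 126 (SD, n = 7). The ranges of both genes overlapped, and per kilobase they stood at 570 CPM (Myod1, rank 84) and 546 CPM (Myog, rank 89). Within a library Myod1 was above Myog in 4 of 7 libraries, by 0.04 ± 0.37 (SD) on the log2 scale per kilobase, which did not differ beyond that spread (exact two-sided sign-flip permutation test, p = 0.781, adjusted over the 17 neighbouring pairs described below 0.830). Without control 8 the sign of that difference turned, to -0.05.

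The other MyoD-family members were low. Myf5 had 15 to 31 counts in the shallow libraries, with a lowest, median and highest CPM of 25.5, 32.3 and 37.4, and Myf6, the factor of late fibre maturation, had 0 to 4 counts. Of the summed CPM per kilobase of the 4 family members, Myod1 held 50.0% (40.4 to 59.3% over the 7 libraries), Myog 48.5% (38.7 to 57.2%), Myf5 1.35% (1.01 to 2.02%) and Myf6 0.20%. Neural cell adhesion molecule Ncam1 (chr9:49502136-49798925, minus strand) was at 651, 564, 658, 575, 521, 480.2 and 643 CPM, a mean of 584 ± 69.1 (SD, n = 7). Control 8 was the lowest and control 5 the highest for Ncam1.

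Acta2, the smooth muscle actin that cultured myoblasts also make, was the most abundant of the 5 markers. Its CPM in control 3 to 9 was 2529, 2765, 2790, 2928, 2584, 2450 and 2685, a mean of 2676 ± 166 (SD, n = 7), and it ranked 33 per kilobase at 1219 CPM (GRCm38 chr19:34241090-34255590, minus strand). Its counts were 1077 to 2425. In that part of the range different molecules can share a UMI and be counted as 1, which also narrows the spread, and with counts corrected for such collisions the mean was 3054 ± 452 CPM (SD, n = 7). The gene whose alleles were altered, Hoxa10 (chr6:52231197-52240854, minus strand), was at 22.9, 16.3, 13.4, 23.8, 57.9, 31.6 and 44.9 CPM, from counts of 11 to 36, a mean of 30.1 ± 16.1 (SD, n = 7). Hoxa10 was lowest in control 5 and highest in control 7, and its CV of 53.5% stood beside a counting CV of 22.8%.

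**Figure D2:**
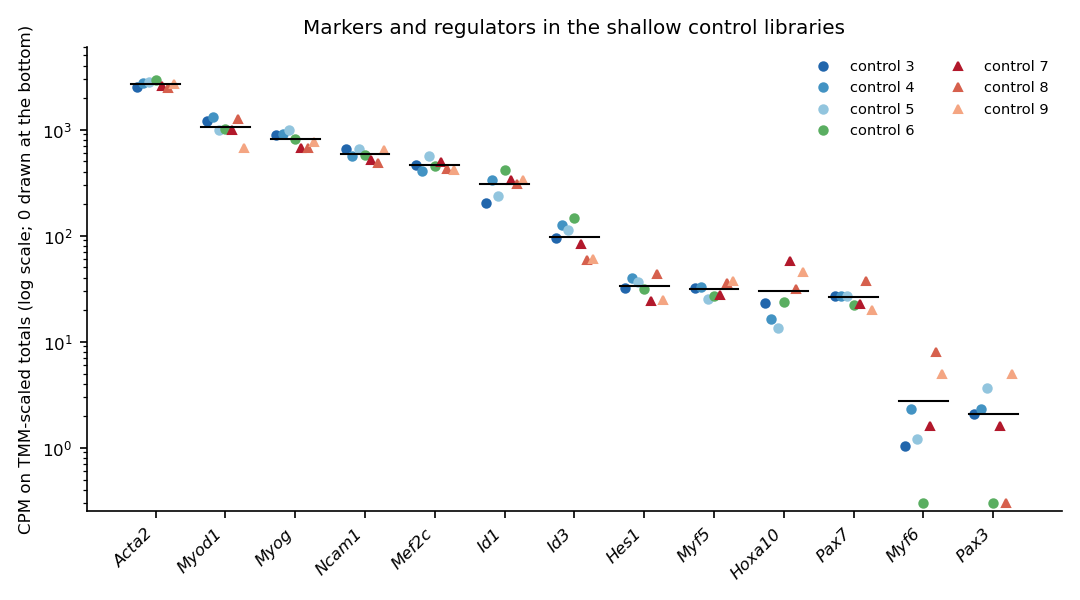
CPM on a log axis for 13 markers and regulators, with 1 point per shallow control library and a bar at the mean; values of 0 sit at the bottom. Acta2, Myod1 and Myog lie at the top, from 666 to 2928 CPM, and Pax7 between 19.9 and 37.5 CPM, above Myf6 and Pax3.

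Among the regulators of myogenesis, 18 of 23 were detected, with a median of 26.4 CPM per kilobase beside 9.15 over all detected coding genes, and their summed CPM was 4482 ± 227 (SD, n = 7). In falling order of CPM per kilobase they were Myod1, Myog, Id1, Pitx3, Id2, Lbx1, Id3, Mef2d, Mef2c, Tcf3, Mef2a, Tcf12, Hes1, Myf5, Tcf4, Six4, Eya4 and Eya1. The Id proteins, inhibitors of E proteins, took 3 of the first 7 places: Id1 had a lowest, median and highest CPM of 203, 333 and 413, Id2 of 170, 185 and 245, and Id3 of 59.3, 93.9 and 147. Of the 17 pairs of neighbours in that order, 0 passed an adjusted p of 0.05, and 7 libraries could not bring a pair below an exact p of 0.0156. Myog over Id1 was 1 of 3 pairs at that limit, higher in 7 of 7 libraries by 1.05 on the log2 scale per kilobase (exact permutation test, adjusted p = 0.0885). The others at that limit were Id1 over Pitx3, by 1.35, and Myf5 over the E protein Tcf4, by 1.27. Every other pair of neighbours had at least 1 of the 7 libraries in the opposite direction. Myf6, Msc, Sox8, Snai1 and Eya2 were below the floor in at least 1 library.

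Ranked by CPM per kilobase over nuclear protein-coding genes outside the ribosomal proteins, the leading 20 genes fell mostly into contractile proteins, small calcium-binding proteins and small heat shock proteins. Actc1, the cardiac actin of developing skeletal muscle, led with 3542 CPM per kilobase. It was followed by Higd2a, an assembly factor of the respiratory chain, at 3487, and the membrane protein Emp3 at 3159. The calcium-binding S100 proteins S100a6, S100a4 and S100a11 had 3126, 3096 and 2013 CPM per kilobase, and the galectin Lgals1 had 2360. The troponins Tnnc1, Tnnt3 and Tnnc2 had 2553, 2526 and 1332, and the myosin light chains Mylpf and Myl1 had 2306 and 2257. The chaperones were Hspe1 (2384), Hspb1 (2056), Hspb8 (1384) and Cryab (1330 CPM per kilobase). Aldoa of glycolysis, the skeletal actin Acta1, the fusion protein Mymk and the cytoplasmic actin Actb closed the 20 with 1476, 1278, 1248 and 1229 CPM per kilobase. The order depended on length: 16 of the 20 remained with the longest transcript as the length, 8 with no division by length, and 17 with collision-corrected counts. Across detected coding genes, CPM had almost no relation to exon length (Spearman's rho -0.05 over 7592 genes, a description across genes).

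Above or among these stood genes of other classes. The mitochondrial mt-Nd1 ranked 1 at 4668 CPM per kilobase and the ribosomal protein gene Rpl4 ranked 14 at 2487. The imprinted long noncoding RNA H19 ranked 11 at 2594 CPM per kilobase, with counts of 3956 to 4092 in all 7 shallow libraries, so its level is limited by the ceiling and its CPM of 4268 to 10165 mostly follows the library total.

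Contractile genes had the highest summed level of the 36 gene lists in the shallow libraries, in cells labelled as proliferating. In control 1 and 2 the ribosomal protein genes were above them, at 27473 and 22205 CPM against 14279 and 10519 for the filament genes. On collision-corrected counts these deep ranges overlapped, at 30477 to 35713 against 27300 to 34371 CPM. Of 26 thick and thin filament genes, 22 were detected, with a median of 622 CPM per kilobase, and together they held 47072 ± 9842 CPM (SD, n = 7), from 35978 to 60167. With 10 of them above the midpoint of the UMI range in a shallow library, the corrected sum was 77310 CPM, from 58122 to 88568. Tnnt2, the cardiac troponin T of embryonic muscle, was at a lowest, median and highest CPM of 4266, 5625 and 8165, and Actc1 at 4214, 5703 and 7953. Both had counts above 3000 in each shallow library and are understated by the ceiling. The tropomyosins Tpm1 and Tpm2, which gate myosin's access to actin, had medians of 4106 and 2736 CPM. Scaffold genes of the sarcomere were detected in 23 of 25 cases with a median of 42.9 CPM per kilobase. Among them the giant spring Ttn had a median of 649 CPM, nebulin (Neb) 442, and the intermediate filament gene Des 1385, with 2761 at the highest. Genes of calcium handling and excitation were detected in 22 of 24 cases, at a median of 66.8 CPM per kilobase. The calcium pump Atp2a1 had a median of 1708 CPM, the calcium buffer Casq2 1007, the release channel Ryr1 171 and the voltage sensor Cacna1s 92.2.

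Among the sarcomeric myosin heavy chains the embryonic form held the larger share. Myh3, the embryonic myosin heavy chain, made up 83.4% of the summed CPM per kilobase of 6 sarcomeric heavy chains, from 78.4 to 91.1% over the libraries. The adult fast form Myh1 made up 10.2% (4.42 to 15.2%), the neonatal Myh8 4.10%, the fast Myh4 1.82%, the slow Myh7 0.335% and the fast Myh2 0.158%. Myh3 was at 88.3 to 91.1% in control 7, 8 and 9 and at 78.4 to 79.3% in control 3 to 6, so these ranges did not overlap. Of the striated and smooth muscle actins, Actc1 held 58.2%, Acta1 21.2% and Acta2 20.6%, and with collision-corrected counts Actc1 held 76.9%. Of the troponin T genes the fast Tnnt3 held 69.6%, Tnnt2 20.5% and the slow Tnnt1 9.91%, and collision correction moved Tnnt2 to 37.7%. That order depends on the division by length, since the mean level with no such division was 5828 CPM for Tnnt2 and 3998 CPM for Tnnt3. The slow and fast forms of the other troponins were nearer each other, with Tnni1 at 59.2% against Tnni2 at 40.8% and Tnnc1 at 65.7% against Tnnc2 at 34.3%.

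Subunits of the acetylcholine receptor, the channel at the nerve-muscle synapse, showed the fetal make-up. Chrng, the gamma subunit of fetal receptors, held 48.4% of the summed CPM per kilobase (41.4 to 55.8%) and the ligand-binding alpha subunit Chrna1 45.8%. Chrnb1 and Chrnd held 3.60 and 2.12%. Chrne, the epsilon subunit that replaces gamma in adult muscle, had 2 counts in control 3 and 0 in the other 6 shallow libraries. Chrna1 had a lowest, median and highest CPM of 1503, 1593 and 1743 and a CV of 5.71% on deposited counts, and stood at 1590.0 ± 133 CPM (SD, n = 7) on corrected ones.

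**Figure D3:**
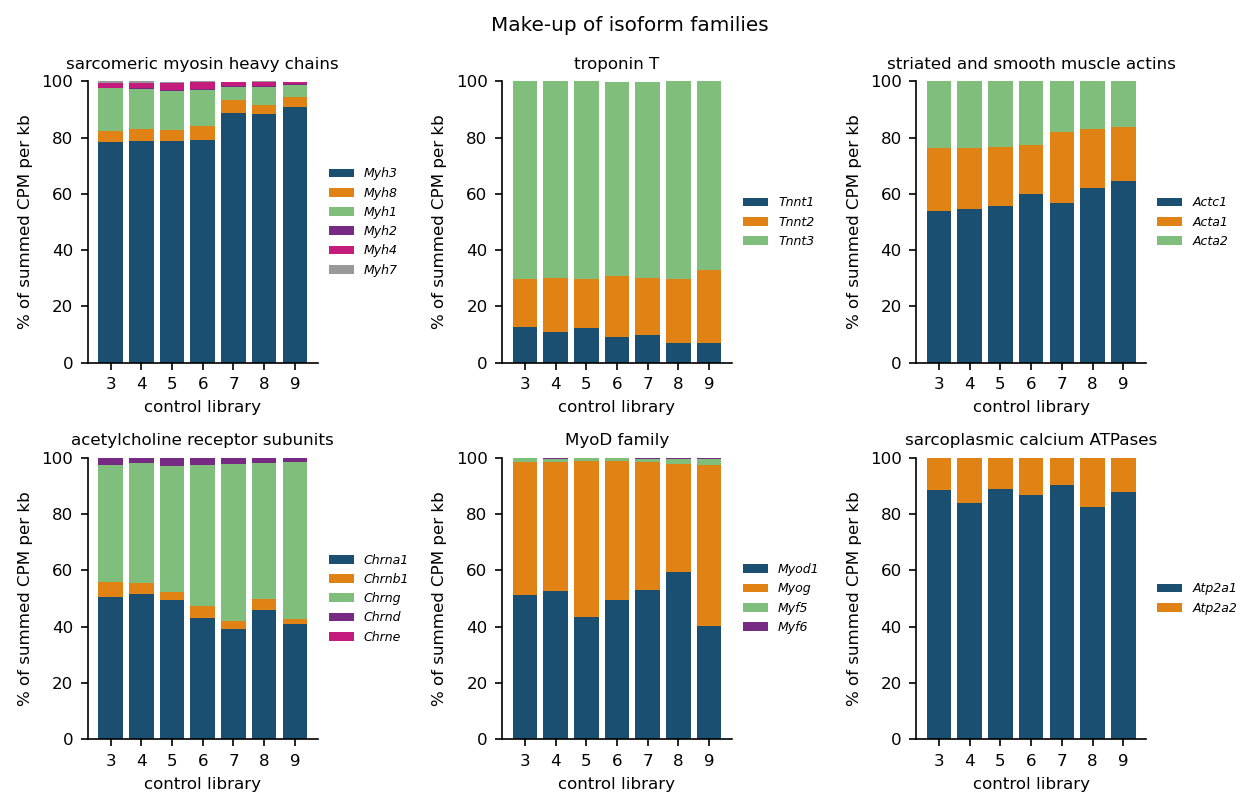
Stacked share (percent) of each member in the summed CPM per kilobase of 6 gene families, 1 bar per shallow control library. Myh3 fills 78.4 to 91.1% of the heavy chains, Chrng and Chrna1 fill most of the acetylcholine receptor subunits, and Myod1 and Myog together fill nearly all of the MyoD family.

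The sequences before the start of 4 of these genes show where the letters of E-boxes and CArG boxes lie in genes of the differentiation programme at high levels here. They are from RefSeq (GRCm38.p6), 5′ to 3′ on the strand of the gene, up to 250 bases before the RefSeq start, with 15 bases that lie inside the annotated gene left out for Myog. Capitals mark an E-box (CANNTG, its own reverse complement in form, so 1 search covers both strands) or, in Acta1, also a CArG box. Myog lies at chr1:134289754-134289988 (plus strand), Acta1 at chr8:123894776-123895025 (minus), Tnnc1 at chr14:31208062-31208311 (plus) and Chrna1 at chr2:73580339-73580588 (minus).
Myog: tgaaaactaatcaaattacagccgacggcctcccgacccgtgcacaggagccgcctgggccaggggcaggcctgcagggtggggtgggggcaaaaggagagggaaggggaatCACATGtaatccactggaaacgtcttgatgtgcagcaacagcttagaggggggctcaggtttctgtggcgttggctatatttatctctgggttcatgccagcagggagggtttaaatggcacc
Acta1: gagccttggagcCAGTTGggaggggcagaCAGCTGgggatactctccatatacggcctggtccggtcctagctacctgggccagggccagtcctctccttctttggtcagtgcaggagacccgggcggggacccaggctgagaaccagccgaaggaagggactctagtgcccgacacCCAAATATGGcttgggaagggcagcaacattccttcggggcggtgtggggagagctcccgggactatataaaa
Tnnc1: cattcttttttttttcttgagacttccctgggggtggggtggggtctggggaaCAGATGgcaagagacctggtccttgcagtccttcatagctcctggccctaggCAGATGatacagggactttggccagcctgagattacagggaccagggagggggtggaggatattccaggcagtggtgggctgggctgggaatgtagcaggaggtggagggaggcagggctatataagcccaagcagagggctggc
Chrna1: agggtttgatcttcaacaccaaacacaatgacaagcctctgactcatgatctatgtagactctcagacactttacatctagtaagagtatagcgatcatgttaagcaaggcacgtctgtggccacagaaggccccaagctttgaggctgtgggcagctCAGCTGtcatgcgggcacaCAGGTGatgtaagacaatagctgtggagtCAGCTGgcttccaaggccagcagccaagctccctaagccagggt
The Myog stretch holds 1 E-box and the 15 bases left out lie over a further one, since the whole window holds 2. Acta1 holds 2 E-boxes and 1 CArG box, Tnnc1 2 E-boxes and Chrna1 3, and these last 2 hold no CArG box. E-box letters are common, present in 66.2% of all 32851 RefSeq windows of 250 bases, and CArG letters are rare, present in 1.47%. Windows of the filament genes held an E-box in 86.2% of 29 cases and a CArG box in 13.8%. Windows of the scaffold genes did so in 88.9 and 22.2% of 18 cases, and those of cytoskeleton and Srf target genes in 42.9 and 21.4% of 28 cases. A match gives the letters only. No binding was measured, and no test of these shares was made.

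Genes of fusion and commitment were detected in 18 of 24 cases, at a median of 34.1 CPM per kilobase. Mymk, needed for myoblast fusion, was at a lowest, median and highest CPM of 1067, 1604 and 2893, and its micropeptide partner Mymx at 49.4, 96.5 and 112. Cdkn1a, the inhibitor of cyclin-dependent kinases that accompanies cell cycle exit, was at 2377, 2920 and 3512 CPM and ranked 48 per kilobase. Adgrb3, a receptor of fusing myoblasts, had 0 counts in all 9 libraries.

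Satellite cell surface and identity genes other than Pax7 were mostly well detected, 14 of 18, with a median of 29.6 CPM per kilobase. M-cadherin (Cdh15) had a lowest, median and highest CPM of 1359, 1554 and 1920, integrin alpha 7 (Itga7) of 1196, 1327 and 2657, and the lamin gene Lmna of 1010, 1467 and 2832. The hepatocyte growth factor receptor Met was spread more widely, at 395, 548 and 1419 CPM. Cd34 and Chrdl2, associated with quiescent satellite cells, had at most 9 and 1 counts in a shallow library.

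Genes of quiescence were detected less often and at a lower level than the satellite cell genes above, 15 of 25 with a median of 9.97 CPM per kilobase. Over all protein-coding nuclear genes 34.8% were detected, with a median of 9.15 CPM per kilobase. Calcr, the calcitonin receptor of quiescent cells, had 0 counts in all 9 libraries, and the Notch receptor Notch1 had 2 to 14 counts in the shallow ones. The growth factor antagonist Spry1 had a lowest, median and highest CPM of 15.0, 23.8 and 49.0. Foxo1, a transcription factor that is also active in differentiating muscle, was the most abundant member, at 423, 456 and 519 CPM. The cell cycle inhibitor Cdkn1c had counts of 95, 75, 47, 23, 13, 8 and 6 in control 3 to 9, a span of 99.1 to 15.0 CPM, wider than its counting error (CV ratio 4.06).

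Division genes were present throughout. Of 36 genes of G2 and M phase 32 were detected, with a median of 17.2 CPM per kilobase and a summed 3733 ± 514 CPM (SD, n = 7), and of 34 S phase genes 27 were detected, with a median of 7.34 and a summed 2069 ± 172 CPM. The spindle protein gene Tacc3 had a lowest, median and highest CPM of 391, 596 and 889.8, the topoisomerase Top2a of 465, 620.3 and 718, and the mitotic kinase Plk1 of 204, 254 and 384. Rrm2, which makes deoxyribonucleotides, had 202, 297 and 542 CPM, and the mitotic kinase Cdk1 had 88.9, 190 and 279. Mki67, a standard label of cycling cells, had 3 to 21 counts. Cyclin D1 (Ccnd1), which drives entry into the cycle, held 76.9% of the summed CPM per kilobase of the D cyclins, Ccnd2 16.1% and Ccnd3 7.07%. Its partner kinase Cdk4 was at 328, 695 and 914 CPM. G1 regulators and inhibitors of cyclin-dependent kinases formed a single list, so its mean mixes genes that drive the cycle and genes that hold it. The mean deviation of that list from its genes' own means over libraries was above 0 in control 3 to 6 (log2 0.20, 0.33, 0.12 and 0.14). It was below 0 in control 7, 8 and 9 (-0.22, -0.18 and -0.38).

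Of the glycolysis genes Aldoa had the highest level per kilobase, with a lowest, median and highest CPM of 3430, 4152 and 5273, and pyruvate kinase Pkm was at 1982, 3120 and 3956. The muscle enolase Eno3 had a median of 1050 CPM and the lactate dehydrogenase Ldha of 135. Of 21 glycolysis genes 17 were detected, with a median of 46.5 CPM per kilobase. Of 36 nuclear genes of oxidative phosphorylation 30 were detected, at 82.96 CPM per kilobase, and of 20 genes of cholesterol synthesis 11, at 8.58. Gapdh, an enzyme every cell uses, had 1 to 3 counts in each shallow library and 25 and 13 in the deep ones. The same held for other genes with many near-identical pseudogenes: elongation factor Eef1a1 had 9 to 31 counts, cytoplasmic actin Actg1 2 to 17, and ribosomal protein gene Rps6 0 to 5. Reads of such genes could be split or set aside in counting, so their levels are uncertain and nothing is drawn from them.

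Ribosomal protein genes were detected in 66 of 82 cases at a median of 64.7 CPM per kilobase, with that uncertainty, and translation factors in 20 of 21 cases at 21.2. Chaperones were detected in 20 of 21 cases, at 51.7 CPM per kilobase and a summed 10696 ± 670 CPM (SD, n = 7). Hspe1, the mitochondrial co-chaperonin, was at a lowest, median and highest CPM of 3340, 3529 and 3694 on deposited counts and at 4622 ± 752 CPM (SD, n = 7) on corrected ones. Of 20 immediate early genes 13 were detected. Jun was at 478, 614 and 983 CPM, and Fos had 1 to 4 counts.

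Matrix genes were led by Sparc, a collagen-binding glycoprotein, at a lowest, median and highest CPM of 1284, 1643 and 1961. Of 20 collagen genes 16 were detected, at 7.76 CPM per kilobase, with Col3a1 the most abundant at 428, 553 and 875 CPM. Their summed level was even over the libraries, 2637 ± 101.5 CPM (SD, n = 7), although Col1a1 was at 111 CPM in control 6 and at most 65.7 in the others.

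In growth factor signalling the ligand Igf2 stood first, at a lowest, median and highest CPM of 1241, 1698 and 2318. Its receptor Igf1r was at 109, 142 and 178 CPM and the binding protein Igfbp5 at 132, 239 and 303. Notch genes were detected in 8 of 17 cases, most of the summed level being Hes6, a differentiation-promoting relative of the Notch targets, at 770.2, 970.0 and 1329 CPM. The Notch targets Heyl and Hes1 had medians of 37.4 and 32.3 CPM. Wnt genes were detected in 10 of 20 cases, and beta-catenin (Ctnnb1), which also serves in cell contacts, made up most of their sum at 2818, 3023 and 3221 CPM. Axin2, a target of Wnt signalling, had 0 counts in all shallow libraries and 0 and 3 in the deep ones. Imprinted growth genes were detected in 14 of 15 cases. Besides H19 and Igf2 the zinc finger gene Peg3 was high, at 799, 885 and 1202 CPM.

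Hox genes, which mark position along the body and limb axes, were detected mainly from the C cluster. Of 9 Hoxc genes 5 were detected, with a summed 664 ± 73.7 CPM (SD, n = 7). Hoxa genes were detected in 3 of 11 cases, with a summed 85.5 ± 18.3 CPM. Of the 8 Hoxb and 8 Hoxd genes 0 were detected, the highest count of either cluster in a shallow library being 3, and Hoxd3, Hoxd11, Hoxd12 and Hoxd13 had 0 counts in all 9 libraries. Hoxc11 was the most abundant, with counts of 543, 436, 379, 334, 305, 168 and 149 in control 3 to 9 and 460.5 ± 81.6 CPM (SD, n = 7). Hoxc10 and Hoxc9 followed at 91.1 ± 13.8 and 45.6 ± 14.8 CPM, then Hoxa10 as above, Hoxc13 at 24.5 ± 5.13, Hoxc6 at 21.3 ± 10.3 and Hoxa7 at 21.3 ± 6.45. Hoxa11 was at 12.7 ± 4.94 CPM, and an antisense gene overlaps it, so without known strand its reads cannot be told from that gene's. Per kilobase Hoxc11 stood at 228 CPM and Hoxa10 at 9.20. Of limb factors, the hindlimb gene Tbx4 had 9 to 32 counts in each shallow library, the forelimb gene Tbx5 had 0 in all 9, and the hindlimb gene Pitx1 had at most 1 in a shallow library. Lbx1, which marks progenitors that migrate into limbs, was at a lowest, median and highest CPM of 79.1, 127.7 and 280.

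**Figure D4:**
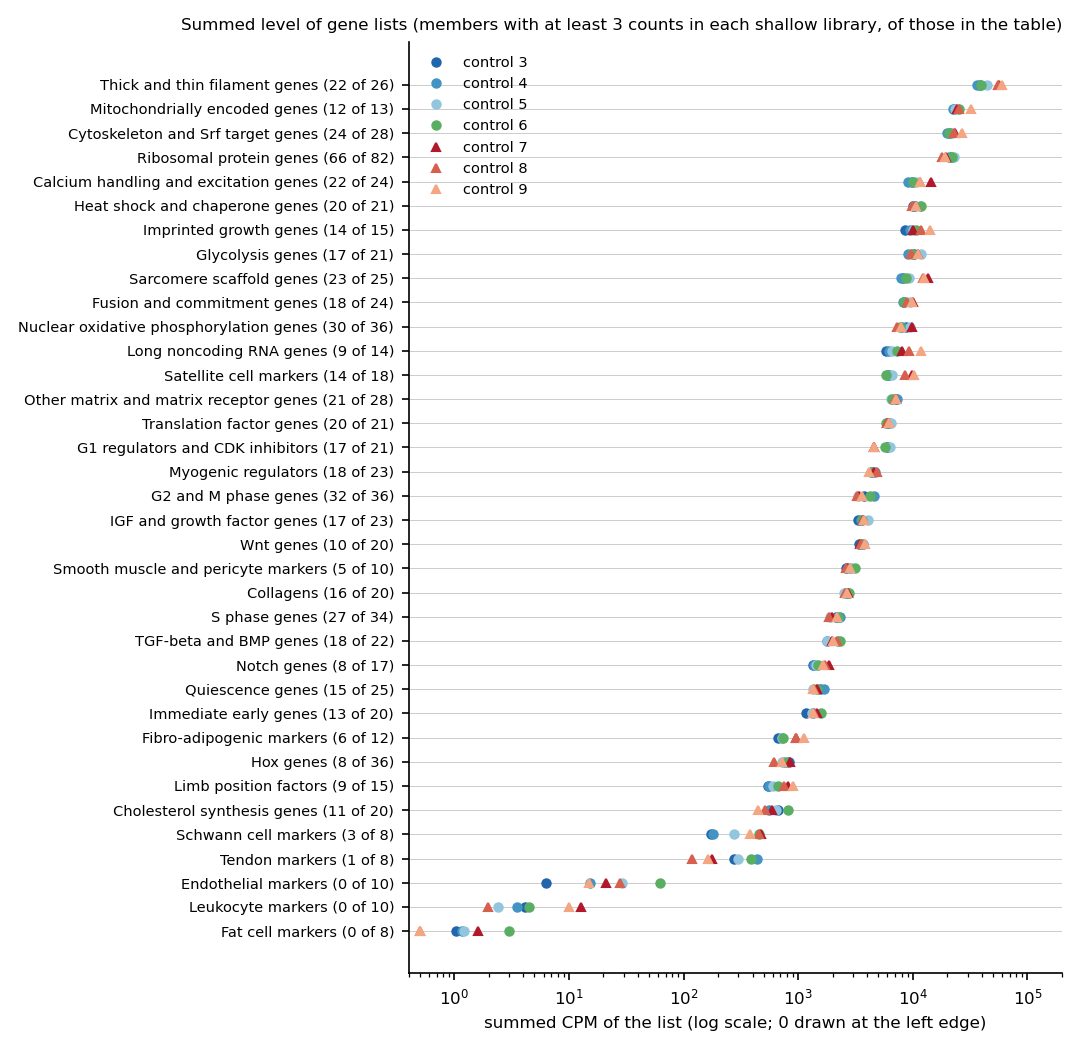
Summed CPM (log axis) of each of the 36 gene lists, with 1 point per shallow control library. Thick and thin filament genes are highest, between 35978 and 60167 CPM, and leukocyte and fat cell markers lie at the bottom.

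The labelled cell type was set against markers of cells that share the muscle. Leukocyte markers summed to 1.98 to 12.9 CPM, with 0 of 10 detected and Adgre1, Cd3e and C1qa at 0 in all 9 libraries. Fat cell markers summed to 0 to 2.97 CPM in the shallow libraries with 0 of 8 detected, 5 of them at 0 in all 9 libraries. In the deep libraries they summed to 24.4 and 24.99 CPM, nearly all of it Pparg. Pparg had 94 and 143 counts in control 1 and 2 against 0 or 1 in control 3 to 9 (log2 ratio 4.05, edgeR adjusted p = 1.22e-05). This gene passed the count filter of the test through the deep libraries alone. Its direction was fixed beforehand, so nothing is drawn from that p-value. Endothelial markers had 0 of 10 detected and summed to 6.26 to 62.4 CPM, highest in control 6. Of the smooth muscle and pericyte markers 5 of 10 were detected, but Acta2 made up nearly all of the sum, and Myh11 and Cnn1, the defining myosin and calponin, had 1 to 8 and 0 to 5 counts. Of the fibro-adipogenic markers 6 of 12 were detected, with a sum of 672 to 1127 CPM led by Col3a1; Pdgfra had 4 to 15 counts, Dcn 0 to 5, and Tcf21 0 in all 9 libraries. Of the tendon markers 1 of 8 was detected, the transcription factor Scx, at a lowest, median and highest CPM of 111, 274 and 439, while Fmod and Kera were at 0 in all 9 libraries.

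Schwann cell markers, of the glia of motor nerves, differed in level between the libraries. They had 3 of 8 detected (Sox10, Ngfr and Pmp22) and summed to 173, 179, 278, 453, 476, 454 and 376 CPM in control 3 to 9. The glial factor Sox10 had counts of 19, 21, 26, 78, 70, 58 and 44 in these libraries and 45 and 41 in the deep ones. Sox10 and the neurotrophin receptor Ngfr were thus higher in control 6 to 9 than in control 3 and 4, while the calcium-binding protein gene S100b had 0 to 5 counts and Gfra3 was at 0 in all 9 libraries. Their part in any other difference between libraries was not tested.

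Spread between the shallow libraries was set for 3897 genes with a mean of at least 30 counts. The median CV was 24.7% against 12.4% from counting error, and the CV was over 2 times the counting error in 2083 genes (53.4%). The common biological coefficient of variation was 0.261 (jackknife SE 0.0134) over 5191 genes, 0.177 without control 7, 8 and 9, and 0.121 between the deep libraries over 12105 genes. The spread of the shallow set was thus smaller without those 3 libraries.

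Of the 12 genes named for a wide spread relative to counting error, several were high together in control 7, 8 and 9. Fhl1, a LIM protein of the sarcomere, was at 880.4, 842, 1041 and 1037 CPM in control 3 to 6 and at 3436, 3492 and 3388 in control 7 to 9. The protein phosphatase gene Ppp1cb went from 578 to 786 CPM in control 3 to 6 and from 2104 to 2456 in control 7 to 9. The adaptor subunit Ap1b1 went from 454 to 647 and from 1820 to 2075 CPM, and the channel of the sarcoplasmic reticulum Tmem38a from 426 to 786 and from 1986 to 2342. Myl1, Pdia6 of protein folding in the endoplasmic reticulum, and the co-chaperone Stip1 were likewise higher in control 7 to 9. These genes were picked for their spread, and the share of all genes that split in this way was not counted. Without those 3 libraries the CV of Fhl1 was 10.9% in place of 66.1%, and that of Ppp1cb 13.2% in place of 62.7%. That of Pdia6 was 12.8% in place of 45.6%, and that of Myl1 11.96% in place of 37.6%. Ap1b1, Stip1 and Tmem38a stayed wider, at 17.9, 23.7 and 30.4%. H19 and mt-Nd4 were among the 12 as well, and their counts lay near the ceiling in several libraries. In 1 case a single library set the value: CT010467.1, a ribosomal RNA gene model, had 12 to 116 counts in control 3 to 8 and 2300 in control 9.

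The genes named for the narrowest spread had a CV below the counting CV. That follows from picking the smallest ratios among 3897 genes, so it is no measure of their steadiness. Pafah1b2, a subunit of a lipid hydrolase, was at a lowest, median and highest CPM of 275, 286 and 298 (CV 3.23% beside a counting CV of 7.39%). Dctn1, a subunit of the dynein adaptor dynactin, was at 163, 172 and 187 CPM (4.49% beside 9.52%). Degs1 of sphingolipid synthesis was at 57.4, 65.2 and 67.3 CPM (6.43% beside 15.8%). A total of 258 of the 3897 genes had a CV below the counting error. Of abundant genes, Mylpf (36.3%), Des (41.1%) and Tnni1 (44.2%), all contractile or cytoskeletal genes of muscle, had wide spreads. Near the ceiling a small spread cannot be read as steadiness, because the ceiling holds the higher counts down: beta-catenin, Ctnnb1, was at 3022 CPM with a CV of 4.27% on deposited counts and at 3611 ± 438 CPM (SD, n = 7) on corrected ones.

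By list, the scaffold genes of the sarcomere had mean deviations from their own means of -0.20, -0.36, -0.11 and -0.17 in control 3 to 6 and of 0.40, 0.23 and 0.22 in control 7 to 9 (log2, 18 genes). Ribosomal protein genes had the opposite order, 0.23, 0.13, 0.28 and 0.21 against -0.16, -0.33 and -0.36 (59 genes). In the same libraries Sox10 and Ngfr were high in control 6 as well as in control 7 to 9, so the glial markers did not follow the same split. These deviations are descriptions, since the libraries that stand apart were known from the data.

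The 2 deep libraries were set against the 7 shallow ones with the quasi-likelihood test of edgeR over 9228 genes. The adjusted p was below 0.05 in 3736 genes (40.5%), with 1918 (20.8%) higher and 1818 (19.7%) lower in the deep libraries. Without control 1 the count was 1633 and without control 2 it was 1405. Each of these fits has 1 deep library, assumed to vary like the shallow ones, so they pass fewer genes by their construction, and a call lost in them is no sign of a weaker difference. With collision-corrected counts 3623 of 9182 genes passed (39.5%), 1854 higher (20.2%) and 1769 lower (19.3%), and 3359 genes passed in both with the same sign. Depth and whatever else set control 1 and 2 apart cannot be told apart here, because no label separates these libraries.

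For the abundant markers, the values on deposited and on corrected counts differed. The log2 ratio of deep over shallow libraries from edgeR was -2.39 for Acta2 on deposited counts (adjusted p = 3.24e-06) and -0.85 on corrected ones (adjusted p = 0.00975). For Myod1 the edgeR ratio went from -1.09 (adjusted p = 0.00474) to 0.47 (adjusted p = 0.155), and for Myog from -0.89 (adjusted p = 0.00604) to 0.25 (adjusted p = 0.418), so the direction of both turned with the correction. For Ncam1 it went from -0.85 (edgeR adjusted p = 0.00680) to -0.38 (adjusted p = 0.196). Without control 2 the ratios on deposited counts were -0.84 for Myod1, -0.75 for Myog and -0.65 for Ncam1, and none of these 3 passed. Pax7 was far from the ceiling and did not pass with all libraries (0.53, edgeR adjusted p = 0.0869). It passed without control 8, at 0.62, and with the deep libraries thinned to the mean shallow total, at 0.77. Hoxa10 did not pass with all libraries (0.18, edgeR adjusted p = 0.708) and passed at 0.79 without control 7, 8 and 9. The libraries left out held the highest shallow levels of each gene, which raises the ratio by construction. Nothing is drawn from the passes without them.

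Of 21 myogenic regulators tested, 7 were higher and 5 lower in the deep libraries on deposited counts, and 8 higher and 2 lower on corrected ones. Over all genes tested the shares were 20.8% higher and 19.7% lower on deposited counts, and 20.2 and 19.3% on corrected ones. Among the higher regulators were Myf5, the Notch target Hes1 and the inhibitor Id3. Myf5 had 711 and 1170 counts in control 1 and 2 against 15 to 31 in control 3 to 9, 1.88 log2 units apart in edgeR (SE 0.20, adjusted p = 6.46e-06). Hes1 had 737 and 1002 against 10 to 34, 1.68 log2 units apart in edgeR (SE 0.22, adjusted p = 2.94e-05). Id3 had 2237 and 2789 against 24 to 108, 1.66 log2 units apart in edgeR (SE 0.26, adjusted p = 0.000156) and 2.18 apart on corrected counts. These 3 genes were chosen after their values were seen.

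Contractile genes were lower in the deep libraries also after correction for collisions. Of 22 filament genes tested 20 were lower and 1 higher on deposited counts, and 15 lower and 1 higher on corrected ones, with a median log2 ratio of -2.13 and -1.61, beside -0.02 and -0.03 over all genes tested. For this and the lists below, the share of all genes tested was 19.7% lower and 20.8% higher on deposited counts. On corrected counts it was 19.3% lower and 20.2% higher. For Myh3 the corrected ratio was -2.28 (edgeR adjusted p = 0.000348) and for Ttn, whose counts lie well below the ceiling, -1.29 (edgeR adjusted p = 0.00897). On deposited counts Ttn was at -1.58 and did not pass without control 2 (-1.42). Scaffold genes were lower in 13 and higher in 1 of 23, collagens lower in 9 of 16, and fibro-adipogenic markers lower in 6 of 6 on corrected counts. Also on corrected counts, genes of G2 and M phase were higher in 13 and lower in 2 of 36, and ribosomal protein genes, with their uncertain counts, higher in 40 and lower in 4 of 73. Of the Schwann cell markers 3 of 4 tested were lower with either counts. Sox10 was at -3.74 on deposited ones (SE 0.78, edgeR adjusted p = 0.00296), but it can pass the count filter through the shallow libraries alone. Nothing is drawn from that p-value. The part of glial or fibro-adipogenic cells in the other differences was not tested.

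The named genes with the largest differences included the matricellular genes Ccn1 and Ccn2, targets of Srf and of the Hippo pathway. Ccn1 had 936 and 1135 counts in the deep libraries against 4 to 10 in the shallow ones, 3.89 log2 units apart in edgeR (SE 0.23, adjusted p = 3.05e-08). Ccn2 had 637 and 455 against 1 to 7 (3.33, SE 0.36). Genes with so few shallow counts can pass the count filter through the deep libraries alone, which fixes their direction beforehand. A mean of 5 CPM in the shallow libraries, as used next, does not remove this limit. Nothing is drawn from the direction or p-values of Ccn1, Ccn2, Pmpcb or the other upward genes named. Of genes that reached 5 CPM on average in the shallow libraries and stayed at or under the midpoint of the UMI range in the deep ones, the difference upward was largest in Pmpcb, a mitochondrial peptidase subunit, with 942 and 1294 counts against 1 to 11 (3.99, SE 0.27, edgeR adjusted p = 1.68e-07). Ost4, Ndufa1, Atn1, Ppp4c, Dusp2, Rcc1 and Mir703 completed the 10, at 3.33 to 3.77. Downward, genes low in the deep libraries can pass the count filter through the shallow ones alone. This covers Ighm, Igha, Lgi4, Apod and Sox10 below, so nothing is drawn from their calls. The immunoglobulin genes Ighm and Igha (-5.68 and -4.42) rested on control 8 and 9. Ighm had 8 and 18 counts there and Igha 10 and 7, the other shallow libraries being at 0. Both lost the call without control 1 (-6.57 and -4.58) and without control 2 (-4.76 and -4.08), and also with DESeq2 and with limma-voom. The secreted glial factor Lgi4 (-5.41) and the apolipoprotein Apod (-3.84) were also lower, with highest counts of 10 and 14, and Apod kept the call in each alternative that tested it. Lgi4 (-5.04), Sox10 (-3.40) and Ebf2 (-3.23) lost the call without control 2, and Kcna6 and Ap1b1 lost it without control 1 (-3.98 and -3.58) and without control 2 (-4.97 and -3.37). With the deep libraries thinned to the mean shallow total, Lgi4 (-5.59), Kcna6 (-5.53), Ighm (-5.27) and Igha (-1.855) lost the call as well.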

How the data were processed

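Per the submitters' processing notes, the authors used HISAT2 and HTSeq, with no version. The deposited table holds raw counts of UMIs per gene in 50689 features, per the title of the table and its whole-number values. The notes name the build Rnor_6.0, whereas the identifiers are mouse Ensembl genes, used as deposited. The kit, the UMI length and the use of strand are not given in the sources used here. Gene models came from GENCODE M21 (GRCm38) for 50462 features, and the 227 others held 0.0303% of control counts.

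CPM used TMM totals of control 3 to 9. Levels between genes were CPM per kilobase of merged exons. The counting CV was taken from the mean count, and intervals cover counting error only. Counts c were corrected for UMI collisions as -K ln(1 - c/K), where K is the ceiling of 4 to the power 6. Deep (over 2000000 counts) and shallow libraries were tested against each other by quasi-likelihood in edgeR 4.0.16 after filterByExpr (R 4.3.3), with Benjamini-Hochberg adjustment at 0.05. Regulators next to each other were compared by exact sign-flip permutation of log2(CPM per kilobase + 0.5). The methods were tested on simulated data. Promoter windows came from RefSeq (GRCm38.p6).

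Members, gene lists and tests were chosen with earlier results of these data known. Genes named were the markers, the leading 20 coding nuclear genes per kilobase outside the ribosomal proteins, the 12 of widest and 8 of narrowest spread relative to counting error, 10 per direction between deep and shallow libraries (mean of at least 5 CPM, deep counts up to the midpoint of the range), and members of each list, usually up to 6. Further list members named for their role were chosen after their values were seen. Alternatives were RLE size factors, count filters, DESeq2 1.42.0, limma-voom (limma 3.58.1), thinned deep libraries, collision correction, other lengths, raw totals, and leaving out libraries. Those of list sums, isoform families and single-gene CVs were added after seeing the data. Some genes are not reported here and were left out of the lists.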

Additional observations from a re-analysis of the deposited data

Results flagged for a closer look

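In 14 of 230 genes and list sums tested, 1 shallow library lay far from the other 6 relative to their range; chance flags about 1 in 20, or 11.5 here. Control 6 held 6 of them. Its Bin1 was at 704 CPM (next library 540.1), Cdkn2c at 233 (148), Col1a1 at 111 (65.7) and Plagl1 at 266 (198). Its Igfbp5 was low, at 132 CPM against 231 in the next library, and its summed endothelial markers were at 62.4 CPM against 29.1. Control 9 held 4. Its CT010467.1, a ribosomal RNA model, was at 5734 CPM (next 121), Actb at 4864 (3340), Mest at 217 (168) and the summed mitochondrially encoded genes at 32306 (25146). Control 4 was high in the inhibitor Id2, at 245 CPM (194), and in the mesenchymal marker Ly6a, at 91.9 (49.9). Casq2 was at 2084 CPM in control 7 (1154), and Pax7 at 37.5 CPM in control 8 (27.1), from 19 counts. No cause of these values was tested.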

How the results depend on the processing

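Depth limits genes below about 3 to 7 CPM in the shallow libraries, and the ceiling limits those above about 2000 counts. Direction and side of the threshold, or the value within its spread, held in 997 of 1088 alternatives for single values and in 129 of 143 for the main ones. Genes that differed between deep and shallow libraries numbered 1886 (964 higher, 922 lower) with at least 10 counts in every control. Leaving out 1 library each gave 1405 to 3883 (851 to 2021 higher, 554 to 1870 lower), the lowest without control 2 and the next without control 1 (1633, 920 higher and 713 lower). With collision correction Myod1 turned to 0.47 and Myog to 0.25 (log2 ratio of deep over shallow libraries), and Acta2 stood at 3054 CPM. The spread was 0.177 without control 7, 8 and 9. With no division by length, 8 of the leading 20 genes remained and 11 pairs of regulators passed, some of them in the reverse order. With the longest transcript 8 pairs passed. A pair at the smallest possible p passes only when several others are there too. These counts are therefore no support for the order.

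Neighbouring regulators changed order with no division by length for Pitx3 and Id2 (-0.28), Id3 and Mef2d (-1.03), Mef2d and Mef2c (-1.27), Tcf3 and Mef2a (-1.62) and Myf5 and Tcf4 (-2.35). With the longest transcript Lbx1 and Id3 (-0.27), Mef2d and Mef2c (-1.04), Tcf3 and Mef2a (-0.70) and Myf5 and Tcf4 (-0.32) did so. Leaving out 1 library gave -0.0499 to 0.14 for Myod1 over Myog, -0.0344 to 0.43 for Lbx1 over Id3, -0.00573 to 0.25 for Mef2a over Tcf12, -0.0610 to 0.17 for Tcf12 over Hes1 and -0.0648 to 0.10 for Tcf4 over Six4. The cause was not tested, beyond what each alternative changes by its construction. No paired analysis was possible because only control libraries were used, so no groups that share replicate numbers were compared.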

Other observations

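Long noncoding RNA genes other than H19 were detected at moderate levels. The imprinted Meg3 was at a lowest, median and highest CPM of 182, 312 and 428 in the shallow controls, and the nuclear Malat1 at 78.8, 208 and 307. A processed pseudogene drew more counts than its parent in 1 case looked at after the values were seen: Mif-ps3 had 82 to 529 counts per shallow library and the cytokine gene Mif 43 to 131. How reads of such pairs were assigned was not tested.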
